A study of Mus musculus with 8 samples.

Results

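The genes described here are the 9 that make up a set on B cells, plasma cells and the transport of immunoglobulin A (IgA): Ms4a1, Cd79a, Cd79b, Pou2af1, Prdm1, Tnfrsf17, Jchain, Mzb1 and Pigr. They were chosen by symbol, as the probes whose accession maps to one of these names, and 10 probes matched, 1 for each gene and 2 for Pigr. All 9 were among the 21303 genes tested, and 7 of them were well above background on all 8 arrays. Gene expression was measured in total RNA of the small intestine of C57BL/6J mice carrying Min/+, a truncating allele of the tumour suppressor Apc that causes intestinal adenomas, and every group carries it. The groups, with 2 arrays each, were females and males on a Western-type diet, and females and males on the semisynthetic control diet AIN-93G. The Western-type diet was a changed AIN-93G rich in fat and poor in fibre, vitamin D, calcium and folate, with 66.4% of its fat from milk and 33.6% from plant oils. Per the labels, feeding lasted 18 months and the RNA of several mice could be pooled on an array. The ages of the mice are not given in the sources used here.

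In the gut wall, B cells of lymphoid follicles switch to IgA and mature into plasma cells of the lamina propria. Plasma cells join IgA into dimers through the J chain, and the epithelial polymeric immunoglobulin receptor carries the dimers to the lumen. Mature B cells make some of these genes' products, plasma cells others, and the epithelium the receptor.

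Levels are given on a log2 scale relative to each array's 75th percentile of processed signal, so 0 is that percentile, and no probe's level is set against another probe's. That percentile lay between 486.3 and 901.8 signal units. From 55.1% to 61.9% of probes were well above background on 7 arrays, against 75.6% on Control female 2, which also stood apart on the first principal component (146.4, with the other 7 arrays between -33.2 and 1.6). The library labelled Control female 1 held as much Y-linked RNA as the male arrays: Ddx3y was at -0.46 there, at -1.04 to -0.67 on the 4 male arrays, and at -7.56 to -6.91 on the 3 other female arrays. The name of its deposited data file also carries the abbreviation used for the Western diet, and for many of the members' differences and the 4 wider lists' diet counts a value without it is also given. Slide 1 held replicate 1 of every group, slide 2 held Western male 2, and slide 3 held Western female 2, Control female 2 and Control male 2. Of the epithelial markers, 13 of 13 were well above background on all arrays.

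Promoter windows are shown for 3 members on which the results turn, the transporter Pigr, the plasma cell receptor Tnfrsf17 and the joining chain Jchain. Each runs from 250 bases before the gene start to 50 after it, 5′ to 3′ on the gene's strand, from RefSeq on build GRCm38.p6, whose promoter table held 6 of the 9 members. The windows lie at chr1:130826434-130826733 on the plus strand for Pigr, at chr16:11313559-11313858 on the plus strand for Tnfrsf17 and at chr5:88527848-88528147 on the minus strand for Jchain. Capitals mark the motif found in the Pigr and Tnfrsf17 windows; none of those searched was found in the Jchain window.
Pigr: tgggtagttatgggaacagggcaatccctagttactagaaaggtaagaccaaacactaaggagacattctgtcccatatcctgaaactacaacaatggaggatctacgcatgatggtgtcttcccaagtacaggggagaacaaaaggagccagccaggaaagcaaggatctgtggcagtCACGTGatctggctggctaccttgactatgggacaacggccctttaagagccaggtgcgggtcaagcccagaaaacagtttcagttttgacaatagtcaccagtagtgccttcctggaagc
Tnfrsf17: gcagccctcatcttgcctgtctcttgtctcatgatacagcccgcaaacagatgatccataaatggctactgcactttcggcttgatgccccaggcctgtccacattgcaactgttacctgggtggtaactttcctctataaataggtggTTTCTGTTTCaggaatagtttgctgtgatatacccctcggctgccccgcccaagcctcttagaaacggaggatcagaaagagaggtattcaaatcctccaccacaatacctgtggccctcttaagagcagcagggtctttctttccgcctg
Jchain: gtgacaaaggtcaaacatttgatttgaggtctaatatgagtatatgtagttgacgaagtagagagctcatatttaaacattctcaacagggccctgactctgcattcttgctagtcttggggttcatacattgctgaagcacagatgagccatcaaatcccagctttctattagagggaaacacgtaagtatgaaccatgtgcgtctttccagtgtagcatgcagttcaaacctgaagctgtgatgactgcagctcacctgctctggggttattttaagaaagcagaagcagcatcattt
A set of 3 motifs was searched on both strands of every window, and no match overlapped another in these sequences. The E-box CACGTG, which upstream stimulatory factors bind in the human PIGR promoter, stood at position -71 from the Pigr start and in none of the 5 other members, against 7.15% of 32851 promoters. The gapped motif of GAAA, any 2 bases and GAAA again, of the kind that interferon regulatory factors bind, matched at position -101 of Tnfrsf17, where it reads TTTCTGTTTC on the printed strand, and in no other member, against 3.44% of promoters. The octamer ATGCAAAT, to which the coactivator Pou2af1 is recruited by Oct proteins, was in 0 of the 6 members and in 1.74% of all promoters. These matches describe the letters in the windows and nothing about binding.

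**Figure D1:**
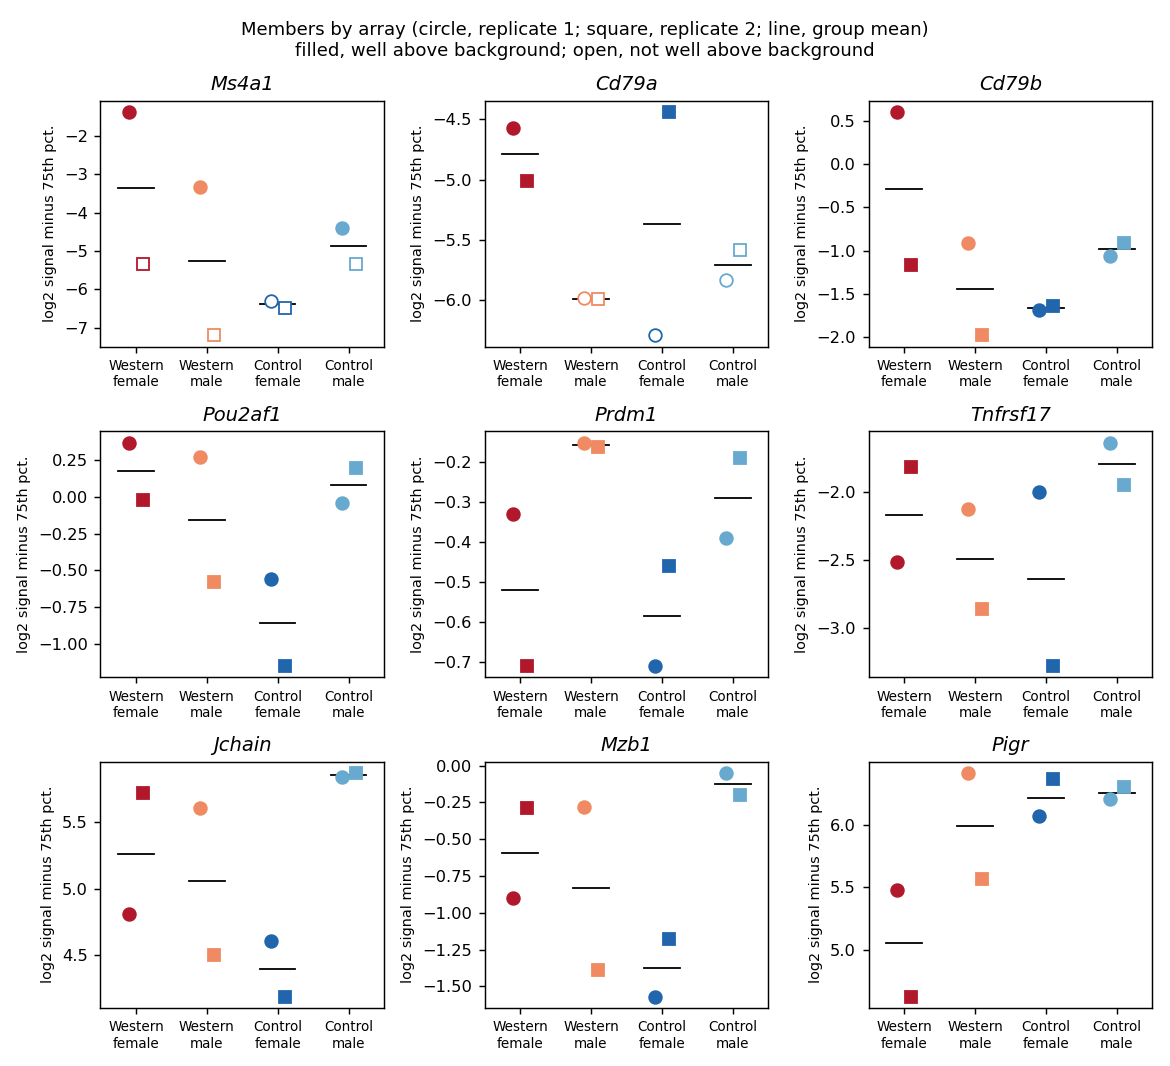
Each panel plots 1 member's log2 signal minus the array's 75th percentile (y axis, own scale) for the 4 groups of 2 arrays, with a line at the group mean. Ms4a1 and Cd79b are highest on Western female 1, Jchain and Mzb1 have their lowest group mean in control females, and Pigr lies lower in Western females than in control females.

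No member passed an adjusted p of 0.05 in limma in any of the 6 comparisons, and neither did any of the 21303 genes (0% in each). With the sexes averaged, 1 of the 9 members had an unadjusted p under 0.05 for diet, Pigr, against 4.28% of all genes in both directions and 3.63% lower. Of the 9 differences 7 were above 0 (40.5% of all genes), with a median of 0.10, against a median of -0.058 over all genes. Leaving out Control female 1, 6 differences were above 0. That fit has a lone control female array, so members' p-values from it are not given. Quantile scaling put the median of all genes in females at 0.021, against -0.109 in the scaling used here, and left the sign of the difference in females as it was for Pigr (-1.09), Jchain (0.93), Mzb1 (0.83), Pou2af1 (1.09), Cd79b (1.46) and Ms4a1 (3.59). Of the genes under an unadjusted p of 0.05 for diet, 15.1% were higher, or 49.1% with quantile scaling. In tissue RNA, fewer cells of a type and less RNA per cell cannot be told apart. Nothing in the labels ties the paired arrays of a group to separate mice, and the p-values therefore describe array-to-array spread, part of which may be technical.

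Pigr, the epithelial receptor that moves dimeric IgA into the lumen, was 5.48 and 4.63 in Western females and 6.41 and 5.57 in Western males, against 6.07 and 6.36 in control females and 6.20 and 6.30 in control males. Western arrays lay below every control array except for Western male 1, which was the highest of all 8. The mean was 5.52 ± 0.73 on the Western diet and 6.23 ± 0.12 on the control diet (SD, n = 4 each). Pigr was thus 1.64-fold lower on the Western diet (log2 difference -0.71 ± 0.28, SE), with an unadjusted p of 0.0444 and an adjusted p of 0.995 in limma, and the difference did not pass. The second Pigr probe gave -0.65 ± 0.26 (unadjusted p 0.0488, limma). It was 3.78 and 3.80 in Western females and 5.06 and 4.14 in Western males, against 4.47 and 4.85 in control females and 4.76 and 5.29 in control males. Without Control female 1 the difference of the first probe was -0.78. Over the 8 removals of 1 array it lay between -0.92 and -0.50, and it was -0.19 within slide 1 and -1.73 within slide 3, where only females could be compared.

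In females alone Pigr was 2.24-fold lower on the Western diet (log2 -1.16 ± 0.40, unadjusted p 0.0262, adjusted p 0.954 in limma), and the 2 Western arrays did not overlap the 2 control arrays, as for 21.8% of all genes. In males the difference was -0.26 ± 0.40 (adjusted p 1), and the groups overlapped. Females minus males in the diet difference was -0.90 ± 0.56 (adjusted p 1), so a difference between the sexes was not shown. Without Western female 2 the difference in females was -0.74, and without Control female 1 it was -1.31. The summed signal of the epithelial markers, in multiples of the 75th percentile, was 2570 and 1970 in Western females, 2140 and 2500 in Western males, 2290 and 2540 in control females, and 2050 and 2570 in control males. The mean of the 13 markers, each centred on its own mean, lay between -0.20 and 0.12, and its lowest array, Western female 2, was also the lowest for Pigr; the part of epithelial content in the Pigr difference was not tested.

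Other tissues' markers also differed between these arrays. Of 7 fat markers 5 were tested, and their mean log2 level, each centred on its own mean, was -1.10 and 4.25 in Western females and -0.21 and -1.46 in Western males, against -1.27 and 0.30 in control females and 0.45 and -0.97 in control males. The highest was on Western female 2, the lowest array for the brighter Pigr probe, and without it the diet difference of that probe was -0.50. Of 7 erythrocyte markers 5 were tested, and 4 had an unadjusted p under 0.05 for diet in limma (4.28% of all genes). All 5 were higher on the Western diet (40.5% of all genes), or 4 higher and 1 lower without Control female 1. Their summed signal was 89.6 and 75.1 in Western females and 150 and 53.3 in Western males, against 16.9 and 16.4 in control females and 52.2 and 73.1 in control males. The part of these tissues in the Pigr difference was not tested.

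A rule took the 5 genes with the highest Pearson r over the 8 arrays among 12386 genes. By it the brighter Pigr probe was most like Gab3 (0.994), Dcc (0.992), Rhox8 (0.989), Ermn (0.988) and Pnma2 (0.983). The second Pigr probe had r between 0.853 (Pnma2) and 0.909 (Dcc) with the same genes, and 0.88 with the first probe. Its own 5 were Ccnt1 (0.964), Smpdl3a, Cd177, Ceacam10 and Dcc (0.909). Only Dcc was in both sets, so the likeness depends on the probe. These values describe the arrays and carry no test.

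**Figure D2:**
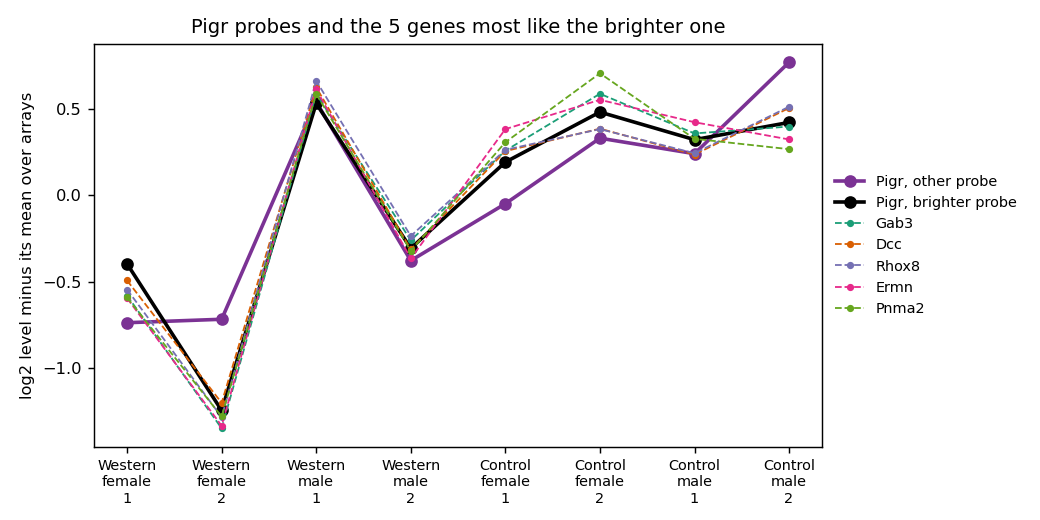
Lines join the 8 arrays in the order of the x axis, Western diet on the left, for both Pigr probes and the 5 genes most like the brighter one; the y axis is the log2 level minus its mean over the arrays. Western female 2 is lowest and Western male 1 highest for the brighter probe, and the second probe is lowest in both Western females.

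Ms4a1, the B cell surface protein CD20, was -1.37 and -5.34 in Western females and -3.34 and -7.20 in Western males, against -6.29 and -6.49 in control females and -4.40 and -5.33 in control males. It was well above background on only 3 arrays, Western female 1, Western male 1 and Control male 1. In females the fitted difference was 3.04 ± 1.63 (adjusted p 0.954, limma), with 0 of 2 control arrays and 1 of 2 Western arrays measuring it. The fold was 4.10 when control arrays were set to no less than the lowest signal well above background. This is not a strict lower bound, because the Western mean includes Western female 2, which was not well above background. With the sexes averaged the fitted difference was 1.31 ± 1.15 (adjusted p 0.995). Without Control female 1 the fitted difference in females was 3.14 and without Western female 1 it was 1.05, and with normexp background correction it was 0.86.

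Cd79b, a signalling chain of the B cell receptor, was 0.60 and -1.17 in Western females and -0.91 and -1.98 in Western males, against -1.69 and -1.64 in control females and -1.06 and -0.91 in control males. Western female 1 was far above the rest and Western male 2 was the lowest. In females the difference was 1.38 ± 0.62 (2.60-fold higher on the Western diet, unadjusted p 0.0689, adjusted p 0.954, limma), and the pair of Western arrays did not overlap the pair of control arrays. It was 1.36 without Control female 1 but 0.50 without Western female 1, and 2.29 within slide 1 against 0.47 within slide 3. In males it was -0.46 ± 0.62, and with the sexes averaged 0.46 ± 0.44, with overlapping groups.

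Cd79a, the partner chain of the same receptor, was -4.57 and -5.01 in Western females and -5.98 and -5.99 in Western males, against -6.29 and -4.44 in control females and -5.83 and -5.58 in control males. Only Western female 1, Western female 2 and Control female 2 were well above background, so in males both diets were below it and no fold is given. Control female 2 was the highest array for this probe, while it was among the lowest for Cd79b. The diet difference was 0.15 ± 0.41 (adjusted p 0.999, limma), and without Control female 1 it was -0.31.

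Cd79b and Ms4a1 gave similar orders of the arrays, but 5 of the 8 Ms4a1 values were not well above background, so the coefficients rest largely on values near background. Over the 8 arrays Pearson's r was 0.95 (exact permutation p 0.000273, adjusted 0.00982 over the 36 pairs of members) and Spearman's rho was 0.95 (exact permutation p 0.00114, adjusted 0.0411). It was 0.83 without the 2 arrays farthest from the median of Cd79b (Western female 1 and Western male 2), 0.89 without Western female 1 and 0.94 without Control female 1. It was the only one of 36 pairs to pass by either coefficient. Of the other B cell pair, Cd79a with Cd79b, r was 0.45 (exact permutation p 0.277, adjusted 0.809; rho 0.40, adjusted 0.840) and 0.01 without Western female 1. No batch held 6 arrays, so r could not be given within slides. In a search added after the values were seen, Cd79b was most like Ltb (0.966) and the T cell gene Cd2 (0.951), and Ms4a1 most like Ikzf1 (0.943) and Cd2 (0.940). The summed signal of the 13 tested T cell markers was 133 and 85 in Western females, 136 and 136 in Western males, 97.4 and 117 in control females, and 78.9 and 164 in control males, so it was not highest on Western female 1.

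Pou2af1, the B cell coactivator that acts with Oct proteins, was 0.37 and -0.02 in Western females and 0.27 and -0.58 in Western males, against -0.56 and -1.15 in control females and -0.04 and 0.20 in control males. Both Western female arrays lay above both control female arrays, while the males overlapped. In females the difference was 1.03 ± 0.37 (2.05-fold, unadjusted p 0.0318, adjusted p 0.954, limma), 1.33 without Control female 1 and 0.93 within slide 1 against 1.13 within slide 3. In males it was -0.23 ± 0.37, with the sexes averaged 0.40 ± 0.26 (adjusted p 0.995), and females minus males 1.26 ± 0.52 (unadjusted p 0.0528, adjusted p 1).

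Prdm1, the transcriptional repressor that drives plasma cell differentiation, was -0.33 and -0.71 in Western females and -0.15 and -0.16 in Western males, against -0.71 and -0.46 in control females and -0.39 and -0.19 in control males. The diet difference was small (0.10 ± 0.16, adjusted p 0.999, limma; 0.04 without Control female 1), and the diets overlapped. All 4 female arrays lay below the mean of the 4 males, with a sex difference of -0.33 ± 0.16 (unadjusted p 0.0870, adjusted p 0.905), or -0.27 without Control female 1.

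Tnfrsf17, the receptor BCMA that supports plasma cell survival, was -2.52 and -1.82 in Western females and -2.13 and -2.86 in Western males, against -2.0 and -3.28 in control females and -1.64 and -1.95 in control males. Western males lay below control males on every array, while in females Control female 2 was the lowest of all 8 and the groups overlapped. The differences were -0.70 ± 0.51 in males, 0.47 ± 0.51 in females and -0.12 ± 0.36 on average, none past the adjusted threshold (limma). With Control female 1 left out they were 1.11 in females and 0.20 on average.

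Jchain, which links IgA and IgM into polymers, was 4.81 and 5.72 in Western females and 5.61 and 4.50 in Western males, against 4.61 and 4.19 in control females and 5.84 and 5.87 in control males. It fell into a high set, of Western female 2, Western male 1 and both control males, and a low set of the 4 others. Western males lay below control males on both arrays (1.75-fold lower, log2 -0.80 ± 0.47) and Western females above control females on both (1.82-fold higher, 0.86 ± 0.47), and on average the diets differed by 0.03 ± 0.33. None of these passed (smallest adjusted p 0.954, limma). The difference without Control female 1 was 1.07 in females and 0.13 on average.

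Mzb1, an endoplasmic reticulum chaperone cofactor for antibody secretion, was -0.90 and -0.29 in Western females and -0.28 and -1.39 in Western males, against -1.57 and -1.18 in control females and -0.05 and -0.20 in control males. Its high and low arrays were the same as those of Jchain. The differences were -0.70 ± 0.42 in males, 0.78 ± 0.42 in females and 0.04 ± 0.30 on average, or 0.58 in females and -0.06 on average without Control female 1. Because the values of Jchain lie in separate sets of 4 arrays, no correlation is given for its pairs with other members, which are counted among the 36.

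In males 0 of the 9 members had an unadjusted p under 0.05 (1.3% of all genes), and in females 2 did, Pou2af1 higher and Pigr lower (5.1%). Across the 9 members, 8 differences were below 0 in males and 8 above 0 in females (48.7% and 36.8% of all genes were above 0). A total of 7 were lower in males and higher in females, as for 15.2% of all genes. In males 4 members did not overlap in the lower direction (13% of all genes), and 1 in the higher direction (12.1%). Cd79a is in these counts although no male array had it well above background. Without it 3 of 8 members did not overlap in the lower direction in males, and 6 of 8 were lower in males and higher in females. In females 5 members did not overlap in the higher direction (9.58%) and Pigr in the lower. The test of the difference between the sexes, females minus males, gave 1.67 ± 0.66 for Jchain (unadjusted p 0.0445) and 1.48 ± 0.60 for Mzb1 (unadjusted p 0.0480), both at adjusted p 1 in limma. Of the 9 members 2 had an unadjusted p under 0.05 in the higher direction, against 0.46% of all genes (1.62% in both directions), and 7 of the 9 differences were above 0, against 34.9%. These values were 1.87 and 1.29 without Control female 1, 1.11 and 0.93 without Western male 2, and 0.44 and 0.90 within slide 1. Females minus males was 1.17 for Tnfrsf17 and 1.26 for Pou2af1, or 1.81 and 1.56 without Control female 1. That fit has a lone control female array, so no p-value is given from it here. Both female differences use the control females, the group that holds the array against its label and the array that stands apart.

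Markers of macrophages and dendritic cells were high and low on the same arrays as Jchain and Mzb1. Of 10 markers tested from a list of 12, 9 were well above background on all arrays. On the Western diet 8 of the 10 were lower in males and 8 higher in females (48.7% and 36.8% of all genes were above 0). Their summed signal, in multiples of the 75th percentile, was 8.97 and 13.9 in Western females, 9.81 and 8.73 in Western males, 8.73 and 7.5 in control females, and 12.0 and 12.4 in control males. The 4 arrays of the high Jchain set had the 4 highest sums. Smooth muscle markers, 9 of 9 tested, were averaged with each centred on its own mean. Their mean log2 level was -0.5 and 0.27 in Western females and -0.31 and -1.45 in Western males. It was -0.28 and -0.02 in control females, and 3.5 and -1.22 in control males, where Jchain was 5.84 and 5.87. The part of these cells in the result was not tested. By the same likeness rule Jchain was most like Tmx4 (0.982), Cybb (0.975), Tmem123 (0.971), Bnip2 (0.965) and Itgax (0.961), of which Cybb and Itgax are genes of phagocytes. The same high and low sets of arrays enter these r, which carry no test. Cd79a was most like Brcc3 (0.963), Fam151b (0.960), Farp2 (0.948), Casp6 (0.935) and Lyl1 (0.912), none a B cell marker of the lists.

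**Figure D3:**
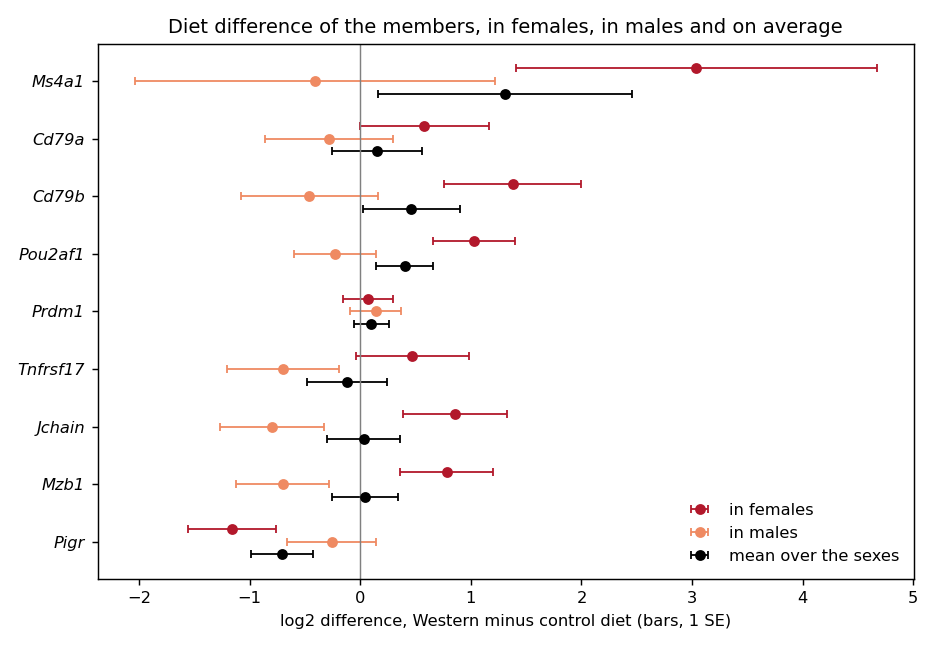
Points are log2 differences, Western minus control, with bars of 1 SE, for each member in females, in males and averaged over the sexes; Ms4a1 and Cd79a include arrays below background, so their values depend on background. Pigr is below 0 in each, while Jchain and Mzb1 lie on opposite sides of 0 in females and males.

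**Figure D4:**
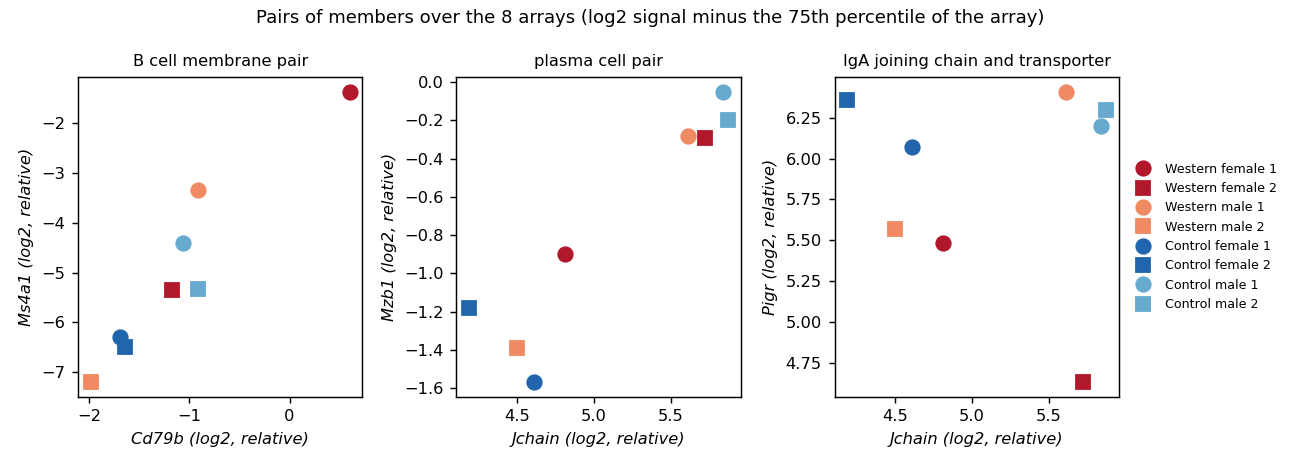
Each panel sets the log2 level of 1 member against another over the 8 arrays, with circles for replicate 1 and squares for replicate 2. Cd79b and Ms4a1 are both highest on Western female 1 (5 of the 8 Ms4a1 values are not well above background), Jchain and Mzb1 share 4 high and 4 low arrays, and Pigr does not follow Jchain.

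Between the sexes, females minus males averaged over the diets, 3 members were higher and 6 lower (62.3% of all genes higher), and none of the 9 had an unadjusted p under 0.05 (3.85% of all genes). Jchain was 1.54-fold lower in females, at 4.83 ± 0.64 in females and 5.45 ± 0.65 in males (SD, n = 4 each; log2 -0.62 ± 0.33 SE, adjusted p 0.905, limma). Pigr was -0.49 ± 0.28 and Mzb1 -0.50 ± 0.30. Without Control female 1, the array counted as female against its Y-linked RNA, the values were -0.73 for Jchain, -0.42 for Pigr and -0.40 for Mzb1. For Cd79a the fitted difference was 0.77 ± 0.41 (adjusted p 0.905, limma), with 3 of 4 female and 0 of 4 male arrays well above background. The fold was 1.38 when male arrays were set to no less than the lowest signal well above background. This is not a strict lower bound, because the female mean includes Control female 1, which was not well above background. Without Control female 1 the fitted difference of Cd79a was 1.23, from a fit with a lone control female array, so no p-value is given. The sex differences on the Western diet alone use no control array. Their p-values rest on a spread fitted over all groups, so they depend on the control arrays, Control female 1 included. In this comparison 0 of the 9 members had an unadjusted p under 0.05 (1.32% of all genes, limma) and 7 differences were above 0 (53%). There Pigr was -0.94 ± 0.40 (unadjusted p 0.0555, adjusted p 1, limma). Cd79a differed by 1.19 ± 0.58 (unadjusted p 0.0855, limma), at least 1.83-fold higher in females, and did not pass. Its probe entered the test only through female arrays, so the filter favours a higher value in females and its sex differences support no conclusion.

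Wider lists, chosen with earlier results of these data known, were read as counts. Of all genes 40.5% were higher on the Western diet, with a median of -0.058, and 4.28% had an unadjusted p under 0.05 (limma). Of 20 B cell surface and identity genes 15 were tested, and 9 were higher and 6 lower on the Western diet, with a median of 0.20 and none at an unadjusted p under 0.05. Without Western female 1 the counts were 6 and 9 and the median -0.07. With Control female 1 left out they were 7 and 8 and the median -0.21. Of these 15 genes 8 were highest on Western female 1, against 9.48% of all genes, and the other 7 on Control female 2, against 32.1%. The inhibitory receptors Btla and Cd72 differed by 0.94 ± 0.43 and 0.33 ± 0.21 and the BAFF receptor Tnfrsf13c by 0.94 ± 0.63, all at adjusted p 0.995 (limma). Btla was well above background on 3 of 4 Western and 1 of 4 control arrays, and Tnfrsf13c on 3 of 4 and 2 of 4. For sex, the receptor kinase Btk differed by 0.93 ± 0.52 (adjusted p 0.905, limma).

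Of 18 germinal centre and follicle genes 11 were tested, and 10 were higher and 1 lower on the Western diet (median 0.24), where 40.5% of all genes were higher. The counts were 8 and 3 without Western female 1 (median 0.13) and 9 and 2 without Control female 1 (median 0.16). With all arrays the single lower gene was the lymphoid chemokine Ccl19 (-0.39 ± 0.16, adjusted p 0.995, limma). Tnfsf13b, the survival factor BAFF, differed by 0.32 ± 0.20, Cd40 by 0.24 ± 0.16 and lymphotoxin beta, Ltb, by 0.49 ± 0.44, with Ltb at 2.0 on Western female 1 and between -0.04 and 0.83 elsewhere. In sex, Tnfsf13b was -0.49 ± 0.20 (unadjusted p 0.0496) and Bcl6, the germinal centre repressor, -0.58 ± 0.28, both at adjusted p 0.905.

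The 20 plasma cell programme genes, all tested, split 10 and 10 with a median of 0 (40.5% of all genes were higher). Without Control female 1 they split 10 and 10 with a median of 0.03. How much of their RNA came from plasma cells was not measured, so the split says little about those cells. Slamf7, a surface receptor of plasma cells, differed by -0.60 ± 0.29 and Derl3, of endoplasmic reticulum degradation, by -0.46 ± 0.30. Tnfrsf13b, the receptor TACI, differed by -0.31 ± 0.17 and Sec11c, of the signal peptidase, by 0.48 ± 0.28 (all at adjusted p 0.995). By sex Sec11c was -0.59 ± 0.28 and Trp53inp1, a stress-response gene, -0.38 ± 0.16 (adjusted p 0.905).

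Of 23 IgA homing and transport partners, all tested, 10 were higher and 12 lower, against 40.5% of all genes higher. The split depended on single arrays, with 5 higher and 16 lower without Control female 1, and 16 higher and 7 lower without Control female 2. Tnf, a cytokine that induces PIGR in human epithelial cells, was -1.14 ± 0.54 (adjusted p 0.995, limma). It was well above background on only 1 of 4 Western and 2 of 4 control arrays, so this value depends on background. Ccl28, the mucosal chemokine for IgA plasma cells, was -0.42 ± 0.28 (adjusted p 0.995), while Ifngr1, the interferon gamma receptor chain, was 0.23 ± 0.14. Il17a was below background on all 4 Western arrays and well above on 2 of 4 control arrays, and its bound was under 1, so no fold is given. By sex, Ccr10, the receptor for Ccl28, was -0.37 ± 0.17 and Ifngr1 -0.29 ± 0.14 (adjusted p 0.905). None of the 12 immunoglobulin constant genes had a probe that could be named, so antibody transcripts are not reported.

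**Figure D5:**
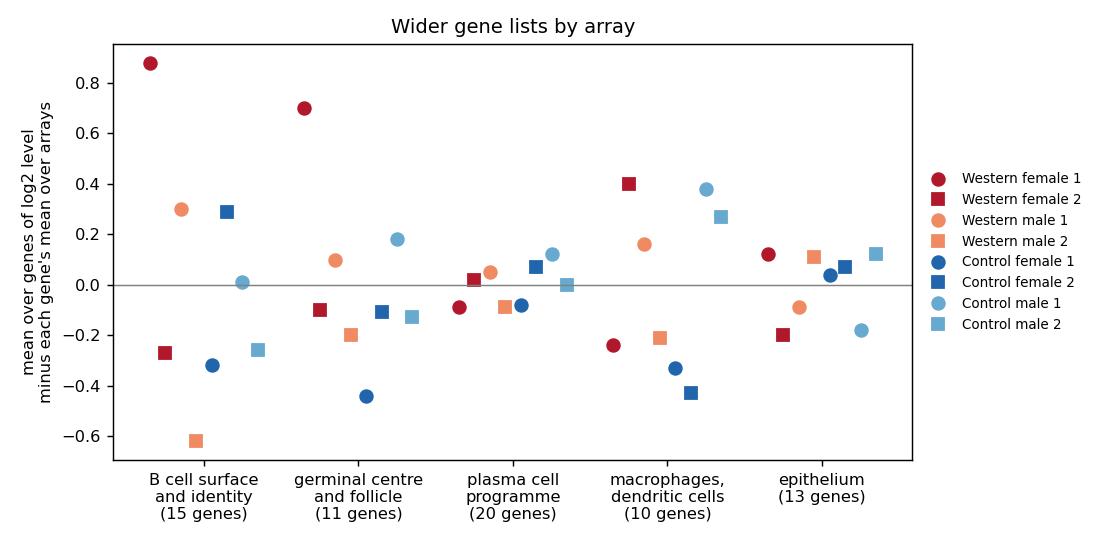
Points are the mean over a list's tested genes of the log2 level minus each gene's own mean, 1 point per array. Western female 1 is highest for B cell surface (0.88) and germinal centre genes (0.70), and Control female 1 is lowest for germinal centre genes (-0.44).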

How the data were processed

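Gene expression was measured on 8 one-colour Agilent arrays (design 026655) of small intestine RNA. Per the file headers, the deposited values are spot intensities on a linear scale, with background already subtracted by Feature Extraction 10.7.3.1 (processed signal). The authors' later normalization is not given in the sources used here. The members and lists were chosen with earlier results of these data known. Control spots (1377) and outlier spots (94 to 216 per array) were left out, repeated probes averaged, and log2 of the intensity was taken minus the array's 75th percentile. Accessions were named through RefSeq (GRCm38.p6). A probe entered when 2 or more arrays had it well above background (25733 did), and a gene was represented by its brightest probe on average. limma 3.58.1 in R 4.3.3 fitted 4 group means, with 4 residual and 2.01 prior degrees of freedom, and Benjamini-Hochberg adjustment over 21303 genes (threshold 0.05). A lower bound replaces a fold where one side was below background. It is the brighter side's mean against, per array, the higher of the probe's own signal and the lowest signal well above background. It is strict only where every array of the brighter side was well above background. Permutation tests of correlations were exact and two-sided. Genes were named by a rule: all members, up to 4 genes per list with the smallest diet p, up to 2 with the smallest sex p, and the 5 genes most like Cd79a, Jchain and Pigr; Ltb per array, Ddx3y and the second Pigr probe's values were added. A gene that the rule named is left out of the text. The scripts ran in Python 3.11.15 with pandas 2.3.3, numpy 2.4.6 and matplotlib 3.10.9, with the R package data.table (version 1.17.8), and the limma step was tested on simulated data. The number of arrays limits precision. Alternatives changed the background correction, scaling, probe filter, probe choice, slide, scan day, replicate block and each array. The other background correction was normexp with offset 50 on median spot signals, because the deposited data hold no mean spot signals.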

Additional observations from a re-analysis of the deposited data

Results flagged for a closer look

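Among the 4 male arrays, Western male 2 lay far below the other 3 for Mzb1 (-1.39) and for Cd79b (-1.98), by the gap to its nearest neighbour over the range. Each member was examined in the 4 arrays of each diet and each sex, 36 groups in all, and chance marks about 1 in 20 such groups. Jchain and Mzb1 were marked because every Western array lay below every control array in males and above every control array in females. Of all genes 13% met the first condition and 9.58% the second. The share that met both was not counted, so these marks cannot be set against chance. The difference between the sexes in the diet effect, females minus males, was 1.67 for Jchain and 1.48 for Mzb1, both at adjusted p 1 in limma.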

How the results depend on the processing

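The count of genes at adjusted p under 0.05 in limma was 0 in all 6 comparisons and under every alternative that kept the 8 arrays; at an unadjusted p under 0.05 there were 911 genes for diet (277 within males, 1086 within females), 346 for females minus males, 821 for sex and 281 for sex on the Western diet. Leaving out 1 array, where the lone array of a group is assumed to vary like the others, it ranged from 0 to 385 for diet in females (385 without Control female 1, 2 without Control female 2), 0 to 2 for females minus males, 0 to 3 for sex and 0 to 2 for sex on the Western diet. Of the genes under an unadjusted p of 0.05, the share that was higher was 15.1%, or 27.6% with normexp and 49.1% with quantile scaling for diet, 11.8%, 19.2% and 48.2% in females, 44.8%, 45.3% and 54.9% in males, 28.3%, 67.8% and 52.6% for females minus males, and 69.1%, 54.7% and 48.1% for sex. For females minus males 143 genes were under 0.05 with normexp, and in females 516. The replicate numbers do not pair the samples (correlation of same-numbered deviations -0.12 to 0.35); the replicate block gave Pigr -0.71 for diet (adjusted p 0.984) and changed no call of a member. Member values changed sign as follows, with the cause not tested. Within slide 1, values were -0.02 for Jchain by diet, -0.80 for Jchain, -0.62 for Mzb1 and -0.38 for Tnfrsf17 by sex on the Western diet, 0.21 for Pigr, 0.16 for Cd79b, 1.05 for Ms4a1 and 0.31 for Pou2af1 by diet in males, -0.52 for Tnfrsf17 by diet in females, and 0.14 for Prdm1 and -0.02 for Tnfrsf17 for females minus males. Within slide 3, they were 0.06 for Pigr, -0.73 for Cd79b and -1.16 for Ms4a1 by sex, and -0.25 for Prdm1, 1.46 for Tnfrsf17 and -0.56 for Cd79a by diet, with -0.25 for Prdm1 and -0.56 for Cd79a in females. Quantile scaling gave 0.18 for Tnfrsf17 by diet and -0.16 for Ms4a1 by sex, and normexp -0.05 for Cd79a by diet and 0.02 for Ms4a1 in males. Leaving out 1 array, ranges that crossed 0 were -0.25 to 0.31 for Jchain, -0.24 to 0.32 for Mzb1, -0.44 to 0.20 for Tnfrsf17 and -0.31 to 0.61 for Cd79a by diet. In males they were -0.68 to 0.16 for Pigr, -0.99 to 0.08 for Cd79b, -2.34 to 1.52 for Ms4a1 and -0.65 to 0.19 for Pou2af1. In females they were -0.12 to 0.26 for Prdm1, -0.17 to 1.11 for Tnfrsf17 and -0.35 to 1.5 for Cd79a, and for females minus males -0.27 to 0.12 for Prdm1 and -0.07 to 1.78 for Cd79a. By sex they were -0.58 to 0.06 for Tnfrsf17, -0.20 to 0.68 for Cd79b and -0.80 to 1.19 for Ms4a1, and on the Western diet -0.34 to 0.76 for Jchain, -0.32 to 0.79 for Mzb1, -0.04 to 0.69 for Tnfrsf17, -0.07 to 3.90 for Ms4a1 and -0.09 to 0.75 for Pou2af1. Ms4a1 and Cd79a are near background, which limits their values.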
